A study of Mus musculus with 2 samples.

Results

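Hedgehog signalling was followed through 9 genes, taken by their symbols from the 31053 genes of the deposited count matrices: the ligands Shh, Ihh and Dhh, the receptor Ptch1, the signal transducer Smo, the antagonist Hhip and the transcription factors Gli1, Gli2 and Gli3. All 9 symbols were found. Another 21 genes of the pathway (co-receptors, ligand processing and release, intracellular regulators and further targets) were read beside them from a fixed list. The cells came from C57BL/6 mouse embryos, as 1 library of E10.5 embryos and 1 of E11.5 embryos (days of embryonic development), each pooling the dorsal aorta, tissue around it and the fetal liver. The tissue was taken apart with collagenase and dispase and then trypsin, and transcripts were counted by 10x Genomics 3' single-cell RNA sequencing with unique molecular identifiers (UMIs). The labels name no mutation or treatment. With 1 library per stage there is no replicate, so all intervals below are 95% intervals for counting error alone. They compare these libraries, and the stage cannot be told apart from the piece of tissue that was taken.

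Hedgehog ligands are secreted and bind the receptor Ptch1 on the receiving cell. Ligand binding lifts the inhibition of Smo by Ptch1, and the Gli factors then activate target genes. Ptch1, Hhip and Gli1 are themselves targets in most tissues that receive the signal, so their transcripts are commonly used to read the response, while Gli2 and Gli3 transcripts are present also without ligand. In the mid-gestation embryo, notochord and floor plate make Shh and pattern the neural tube and the neighbouring somites, of which the sclerotome forms the axial skeleton. Ihh is best known from cartilage and gut, and Dhh from Sertoli cells of the testis, Schwann cells and endothelium.

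The promoters of 7 of the 9 genes were present in the RefSeq table used here (GRCm38.p6); those of Shh and Gli1 were not used here. The 250 bases before the start site are shown for Ptch1 and Hhip, the receptor and the antagonist whose levels were both highest, among groups of cells sequenced to ordinary depth, in the same E10.5 cells. Ptch1 lies at chr13:63508328-63573598 on the minus strand and Hhip at chr8:79965851-80058006 on the minus strand. The stretches cover chr13:63565736-63565985 and chr8:80058009-80058258 and read, 5′ to 3′ on the gene's strand. The Ptch1 stretch lies inside the gene as annotated, so it precedes an internal start:
Ptch1: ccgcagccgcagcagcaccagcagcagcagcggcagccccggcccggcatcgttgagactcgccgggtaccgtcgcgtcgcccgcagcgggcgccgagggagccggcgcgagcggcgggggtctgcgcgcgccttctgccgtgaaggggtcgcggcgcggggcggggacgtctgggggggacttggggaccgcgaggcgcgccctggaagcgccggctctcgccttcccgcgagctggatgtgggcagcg
Hhip: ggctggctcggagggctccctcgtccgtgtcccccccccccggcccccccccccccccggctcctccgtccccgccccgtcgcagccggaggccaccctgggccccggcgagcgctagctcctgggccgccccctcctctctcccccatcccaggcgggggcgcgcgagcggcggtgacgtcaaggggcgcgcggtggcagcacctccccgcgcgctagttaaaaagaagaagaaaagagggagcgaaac
Both were rich in CpG, with 41 CpG and 78.4% G or C for Ptch1 and 28 CpG and 76.0% for Hhip. The Gli consensus TGGGTGGTC, searched on both strands, occurred in 0 of the 7 member stretches, exactly or with 1 mismatch. Among the 250-base stretches of all 32851 promoters, 0.225% held it exactly and 5.79% with at most 1 mismatch. This describes the letters of these windows only.

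Barcodes were kept with 1000 or more UMIs, 500 or more genes and no more than 10% mitochondrial UMIs: 8705 of 10996 in the E10.5 library (median 15515 UMIs) and 9756 of 12289 in the E11.5 library (median 13332 UMIs). The libraries shared 24 barcodes. Of 39 clusters, 22 were named from marker lists into 15 classes, and 51.01% of E10.5 and 57.92% of E11.5 cells stayed unnamed and are given by cluster number and, for most, leading genes. In 25 clusters over 90% of the cells came from 1 library, so such a cluster may be a library rather than a cell type. The labelled tissues were present by their markers: a cluster of 174 and 66 endothelial cells with the arterial gene Gja4 at 1884 and 1835 CPM (UMIs of the gene per 1000000 UMIs of the cells, less haemoglobin and mitochondrial genes), and hepatoblast-like cells with Afp at 13696 and 31512 CPM. The dissected tissue also held cells of the axis: 1286 sclerotome-like cells at E10.5 with Pax1 at 495 CPM, against 21.8 CPM in all other E10.5 cells, and 330 floor plate-like cells with Foxa2 at 306 CPM. Their counterparts at E11.5 numbered 10 and 0 cells. Fewer cells of a kind and less RNA per cell cannot be told apart in a total over a library.

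**Figure D1:**
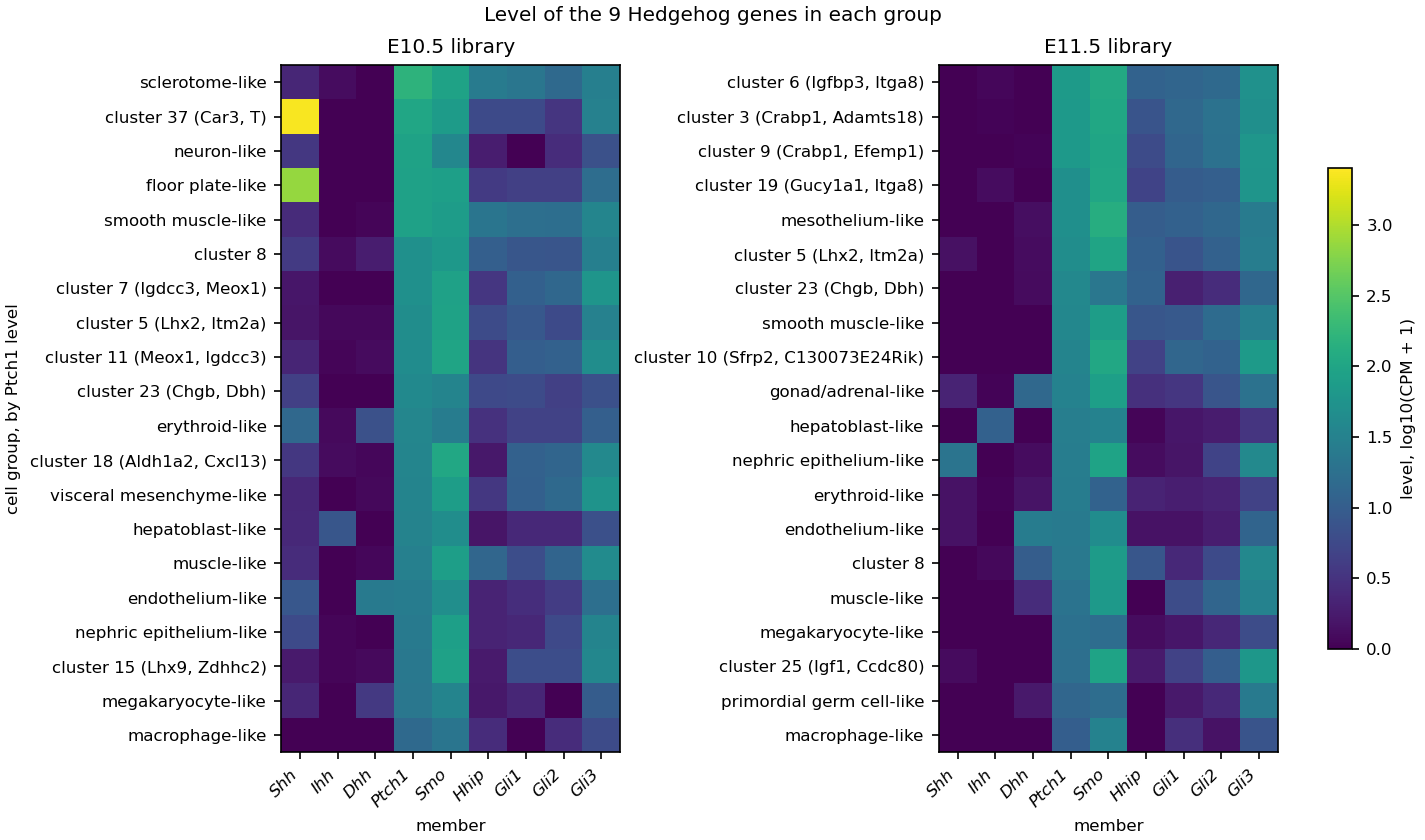
Level of each of the 9 genes (columns, colour as log10 of CPM + 1) in the 20 deeper cell groups of each of the E10.5 and E11.5 libraries. Shh stands out in cluster 37 and the floor plate-like cells, Ihh in the hepatoblast-like cells and Dhh in the endothelium-like and gonad or adrenal primordium-like cells, whereas Ptch1, Smo and Gli3 are spread over most groups.

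Shh, the ligand of the notochord and floor plate, was concentrated in 2 small groups of E10.5 cells. The library held 4897 Shh UMIs (35.2 CPM) in 450 cells, 5.17% of the total. Cluster 37, 47 cells led by Car3, T and Krt8, held 1954 of them: 39.9% of the UMIs in 0.540% of the cells. Its level was 2332.5 CPM (2230 to 2438), 110-fold (104 to 116) that of the other E10.5 cells, and 46 of its 47 cells had a Shh UMI. T, the notochord gene Brachyury, was at 864 CPM there, the BMP antagonist Nog at 230 CPM and Foxa1 at 146 CPM. The notochord gene Noto was at 0 there and also in all other E10.5 cells. With T, Nog and Foxa1 the cluster had the 3 markers needed, but it did not meet the naming rule. Its 10 leading genes held Krt8 and Krt18 of the endoderm epithelium list and only T of the notochord list. When only cells with at most 5% mitochondrial UMIs were clustered, a cluster of 35 cells with 1324 Shh UMIs met the rule as notochord-like.

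The floor plate-like cells held 2572 Shh UMIs, 52.5% of the total in 3.79% of the cells. Their level was 719.55 CPM (692 to 748), 42.0-fold (39.7 to 44.4) that of the other cells and 3.24-fold below cluster 37. Shh was detected in 215 of the 330 cells (65.2%). Thinned to 5000 UMIs per cell, it was detected in 37 of 37 cells of cluster 37 (10 shallower cells left out) and in 175 of 258 floor plate-like cells (67.8%, 72 left out). As a measure of background, 26 of the 1286 sclerotome-like cells (2.02%) had a Shh UMI, although their median depth was 19221 UMIs against 9019.5 in the floor plate-like cells. The floor plate-like class depended on the clustering: at Leiden resolution 2.0 a class of 184 cells had Shh at 1253 CPM, and with each library clustered alone a class of 179 cells had 1309.7 CPM. No cluster met the floor plate rule among cells with at most 5% mitochondrial UMIs.

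Within the floor plate-like class, the cells with and without a Shh UMI differed in their other midline and ventral neural genes. Foxa2, a floor plate transcription factor, was detected in 182 of the 215 cells with Shh (84.7%) and in 25 of the 115 without (21.7%). Nkx2-2, which marks the neural progenitors beside the floor plate, went the other way, with 29.3% and 49.6%. Median depths were 9337 and 8181 UMIs. Ptch1 was seen less often in the cells with Shh: thinned to 5000 UMIs, in 45 of 175 (25.7%, 19.4 to 32.9) against 38 of 83 (45.8%, 34.8 to 57.1). These 2 sets of cells were split by Shh itself within 1 library, so the values are a description.

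Outside these groups Shh UMIs came mostly from a handful of cells. At E10.5 the erythroid-like cells held 57 Shh UMIs, 47 of them in 3 cells. The endothelium-like cells held 75 Shh UMIs, 54 of them in 3 cells. At E11.5 the whole library held 101 Shh UMIs (0.689 CPM) in 30 cells. Of these, 70 (69.3%) lay in 15 of the 69 cells of the nephric epithelium-like cluster 16, and 49 of the 70 lay in 3 cells that had UMIs of Foxa2 and Sox2 and none of the nephric genes Pax2 and Lhx1. The other 12 cells held 21 Shh UMIs, and 11 of the 12 had Pax2. The nephric value of Shh at E11.5 thus rested largely on 3 cells without these nephric genes.

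**Figure D2:**
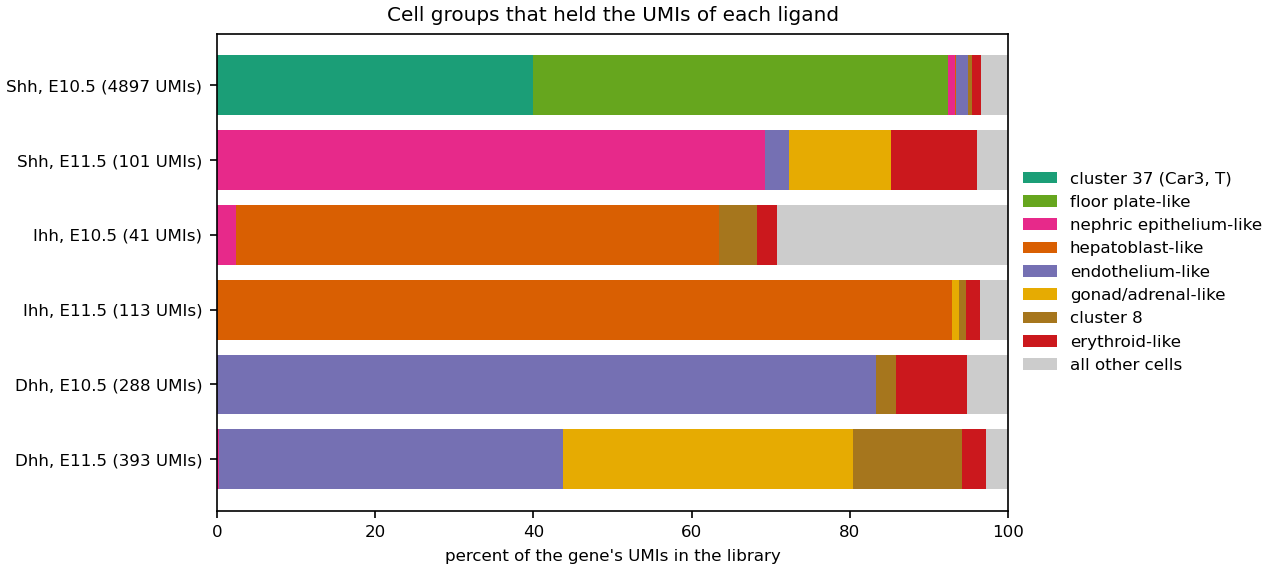
Percent of all UMIs of Shh, Ihh and Dhh in each library that lay in each cell group (coloured stretches of a bar). Cluster 37 and the floor plate-like cells hold 39.9% and 52.5% of Shh at E10.5, the hepatoblast-like cells 61% and 92.9% of Ihh, and the endothelium-like cells 83.3% and 43.5% of Dhh.

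Ihh, the ligand of cartilage and gut endoderm, was rare, with 41 UMIs in the E10.5 library and 113 in the E11.5 library, and most lay in the liver cells. The hepatoblast-like cells held 25 Ihh UMIs in the first (7.19 CPM, 4.65 to 10.6) and 105 in the other (10.4 CPM, 8.5 to 12.6). This was 61% and 92.9% of all Ihh UMIs and 61-fold and 177-fold the level in the other cells of the same library. Ihh was detected in 22 of 93 (23.7%) and 76 of 335 (22.7%) hepatoblast-like cells, at median depths of 35371 and 33547 UMIs. The erythroid-like cells, also deep at a median of 24688 UMIs, had an Ihh UMI in 2 of 1146 cells at E11.5. Thinning to 5000 UMIs left 3 of 83 cells (10 left out) and 12 of 264 (71 left out), so most detections depended on the depth of these cells. The level within the hepatoblast-like cells differed between the libraries by a log2 ratio (E11.5 over E10.5) of 0.53, with an interval from −0.11 to 1.22 that includes 0.

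Dhh, known from Sertoli and Schwann cells and from endothelium, had 288 UMIs in the E10.5 library, against 393 in the other. Its highest level was in cluster 29, the endothelium-like cluster with arterial markers. There Dhh was at 55.4 CPM (47.8 to 63.9, in 92 of 174 cells) in the E10.5 library. In the E11.5 library it was at 102.7 CPM (86.5 to 121, in 44 of 66 cells). Thinned to 5000 UMIs the shares of cells were 26.0% and 40.6%. The other endothelium-like cluster, number 13, had 7.59 and 5.62 CPM of Dhh. As background, 0 of the 1286 sclerotome-like cells had a Dhh UMI, which allows a share of cells with a UMI of up to 0.233% at this depth. For the endothelium-like class as a whole Dhh was at 23.7 and 25.5 CPM, with 83.3% and 43.5% of all Dhh UMIs. Among cells with at most 5% mitochondrial UMIs the class had 8.43 and 5.49 CPM, and a cluster of 216 and 98 cells that held 66 and 50 Dhh UMIs stayed unnamed there. Dhh overlaps Rhebl1 on the same strand, so reads in the overlap cannot be assigned with certainty.

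Dhh appeared in other places too. The gonad or adrenal primordium-like cluster 30, present at E11.5 alone, had Dhh at 55.5 CPM (46.4 to 65.8) in 68 of 152 cells (44.7%), and 33.6% of all E11.5 Dhh UMIs. The other clusters of that class had 1.44 (cluster 12) and 0.935 CPM (cluster 36). Cluster 30 depended on the clustering. At resolutions 0.5 and 2.0, unnamed E11.5 clusters of 714 and 372 cells had Dhh at 14.2 and 26.3 CPM, from 142 and 143 UMIs. With doublets removed, 346 unnamed cells had 28.0 CPM. Among cells with at most 5% mitochondrial UMIs, a gonad or adrenal primordium-like cluster of 415 cells had 9.22 CPM. In the unnamed cluster 8, Dhh was found in 7 of 360 E10.5 cells and in 46 of 300 E11.5 cells, at 0.873 and 8.98 CPM. Cluster 22 of the erythroid-like cells had 26 Dhh UMIs in 23 of 229 E10.5 cells (10.04%, median depth 32582 UMIs) and 2 UMIs in 192 E11.5 cells. Of those 23 cells, 20 had the erythroid factor Klf1 and 2 had the endothelial gene Cdh5 (8.70%), against Cdh5 in 6 of the 206 others (2.91%).

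Ptch1, the receptor and a target, was broad but uneven. In the E10.5 library it was detected in 3597 cells (41.3%), at 62.4 CPM in all. In the E11.5 library it was detected in 3276 cells (33.6%), at 38.3 CPM. Thinned to 5000 UMIs, with 1853 and 1567 shallower cells left out, the shares were 22.9% and 17.0%. The sclerotome-like cells held 3873 Ptch1 UMIs, 44.6% of the E10.5 total with 14.8% of the cells and 17.7% of all UMIs. Their level was 156.86 CPM (152 to 162), 3.73-fold (3.57 to 3.89) that of the other E10.5 cells. Ptch1 was detected in 1043 of the 1286 sclerotome-like cells (81.1%), and in 590 of 1240 (47.6%) after thinning.

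Among the 20 E10.5 groups with a median depth of at least 3000 UMIs, the median Ptch1 level was 37.4 CPM. Below the sclerotome-like cells came cluster 37 with 102.7 CPM, the neuron-like cells with 89.7, the floor plate-like cells with 87.3 and the smooth muscle-like cells with 87.0 CPM. Both groups rich in Shh were above that median: against the other E10.5 cells, Ptch1 was 1.65-fold (1.32 to 2.04) higher in cluster 37 and 1.41-fold higher in the floor plate-like cells. The floor plate-like value depended on the clustering. Ptch1 there was at 52.1 CPM at resolution 2.0 (184 cells) and 53.6 CPM with each library clustered alone (179 cells). Both lie below the 62.4 CPM of all E10.5 cells. It was at 87.9 CPM at resolution 0.5 and 105.5 CPM with doublets removed. At resolution 2.0 an unnamed cluster of 152 cells, with Shh at 87.9 CPM, had Ptch1 at 127.9 CPM. With each library clustered alone, an unnamed cluster of 172 cells, with Shh at 68.0 CPM, had Ptch1 at 136.0 CPM. Both were above the 102.7 CPM of cluster 37, so the order given here is that of the main clustering. Macrophage-like cells were lowest with 13.4 CPM, from 8 UMIs. The shallow cluster 34 (median 1384 UMIs in total) had a higher value than the sclerotome-like cells, 332 CPM, from 32 UMIs. At E11.5 the range was narrower. The unnamed clusters 6, 3 and 9, led by Igfbp3 and Crabp1, were at 70.1, 68.0 and 66.4 CPM with overlapping intervals, and macrophage-like cells were again lowest with 9.47 CPM in 17 of 111 cells. The median of the 20 E11.5 groups was 29.3 CPM. The Dhh-bearing gonad or adrenal cluster 30 had Ptch1 at 62.6 CPM, against 20.7 in cluster 12 and 34.6 in cluster 36 of the same class. This value too depended on the clustering: the larger unnamed Dhh-bearing clusters at resolutions 0.5 and 2.0 had Ptch1 at 30.6 and 38.4 CPM.

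Hhip, which binds Hedgehog ligands at the cell surface and limits their action, followed a narrower pattern. The sclerotome-like cells held 55.2% of its E10.5 UMIs, at 25.2 CPM (23.3 to 27.3), 5.72-fold (5.08 to 6.45) the other cells, and 368 of them (28.6%) had a Hhip UMI. Smooth muscle-like cells followed with 19.95 CPM, muscle-like cells with 12.1 and cluster 8 with 9.73 CPM. The ligand-making floor plate-like cells had 2.80 CPM and the neuron-like cells 0.854 CPM of Hhip, against a median of 2.32 CPM over the 20 groups. At E11.5 cluster 36 of the gonad or adrenal primordium-like cells had Hhip at 14 CPM from 15 UMIs, and clusters 23, 6 and 5 followed with 10.8, 10.8 and 10.1 CPM.

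Gli1, the Gli factor whose transcription follows the signal most closely, was at 20.3 CPM (18.6 to 22.1) in the sclerotome-like cells, 2.91-fold (2.60 to 3.26) the other E10.5 cells and 38.6% of its UMIs. Smooth muscle-like cells had 16.4 CPM and clusters 18 and 7 had 10.51 and 10.2 CPM. It was low where Ptch1 was not: 3.36 CPM in floor plate-like cells, and 0 of 119 neuron-like cells with a UMI. At E11.5 clusters 3, 10, 9 and 6 had 13.3, 12.1, 12.0 and 12.0 CPM, and endothelium-like cells had 0.447 CPM. Gli1 overlaps Arhgap9 on the opposite strand.

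Gli2 and Gli3, which carry most of the activator and repressor function, were read among the deeper groups (median depth of at least 3000 UMIs). Neither was highest in the sclerotome-like cells at E10.5. Gli2 was highest at E10.5 in smooth muscle-like cells (15.9 CPM) and visceral mesenchyme-like cells (13.7 CPM), and the sclerotome-like cells (13.4 CPM) were 1.67-fold above the rest. Gli3 was highest in cluster 7 (58.9 CPM), the visceral mesenchyme-like cells (54.6 CPM) and cluster 11 (45.4 CPM), and the sclerotome-like cells, at 28.4 CPM, were at 0.843-fold of the other cells. At E11.5 Gli2 was highest in clusters 3 and 9 (18.2 and 17.8 CPM) and Gli3 in clusters 10, 25 and 9 (70.4, 62.8 and 60.1 CPM). Hepatoblast-like cells had Gli3 at 2.37 CPM there. Smo, the transducer, was present in every one of these groups: at E10.5 it ranged from 20.1 CPM in macrophage-like cells to 109.9 CPM in cluster 18, with 91.1 CPM in the sclerotome-like cells (1.22-fold). At E11.5 Smo was highest in mesothelium-like cells (130.4 CPM) and lowest in erythroid-like cells (10.8 CPM).

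**Figure D3:**
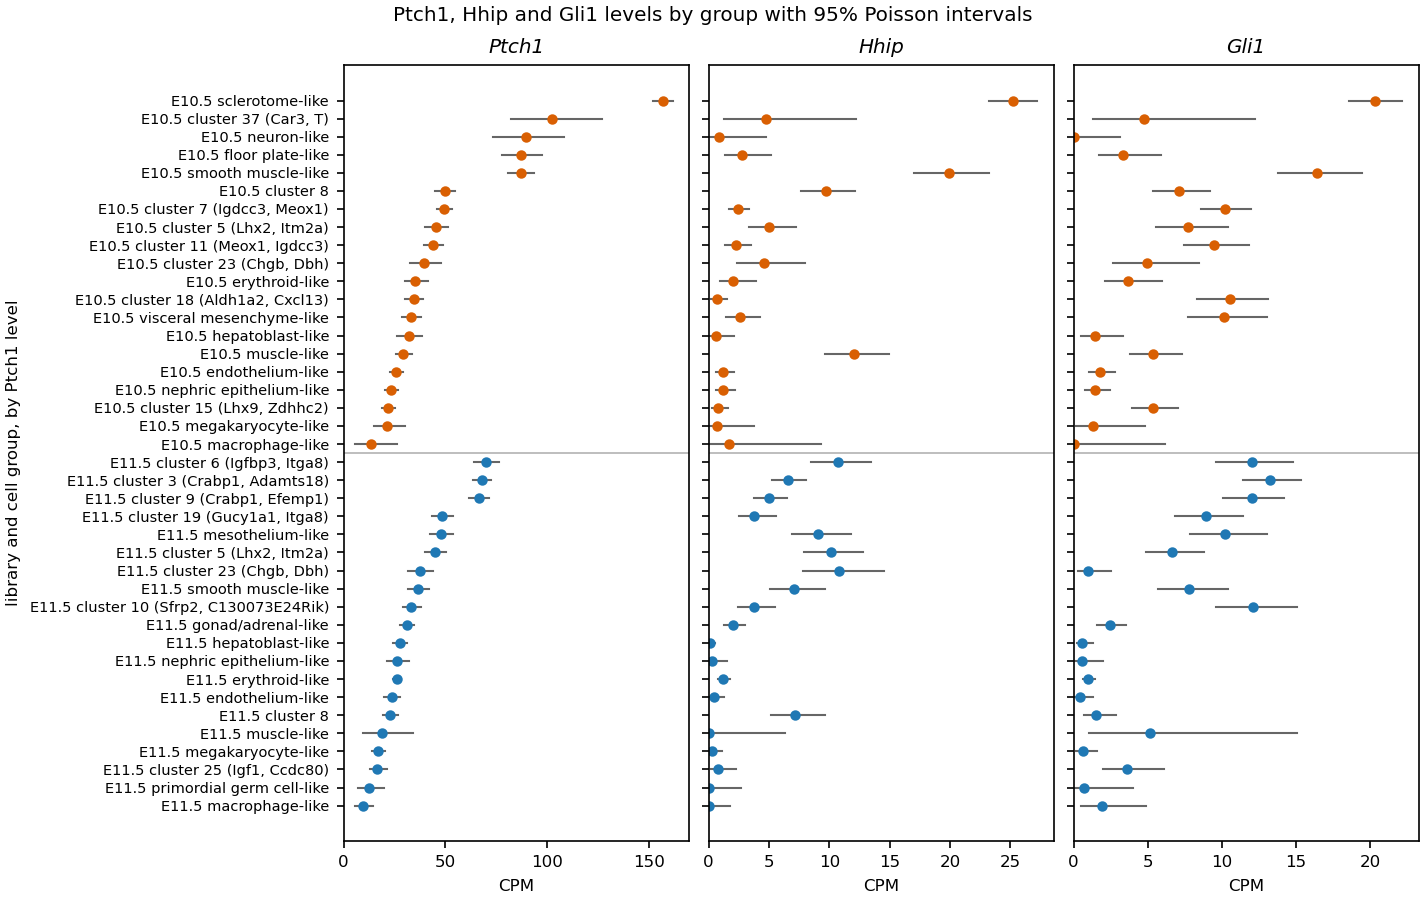
Level of Ptch1, Hhip and Gli1 (CPM, with 95% counting intervals) in the 20 deeper cell groups of each library, ordered by Ptch1, each group a point. The sclerotome-like cells at E10.5 stand at 156.86, 25.2 and 20.3 CPM, while the floor plate-like cells, at 87.3 CPM of Ptch1, have 2.80 CPM of Hhip and 3.36 CPM of Gli1.

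The sums below each needed at least 50 cells, so cluster 37 (47 cells), highest in Shh at E10.5, was not among them. Across the 38 sums of a cell group in a library, Ptch1 varied with Gli1 (Pearson's r 0.68, Spearman's rho 0.57) and with Hhip (r 0.61, rho 0.63). It varied less with Smo (r 0.53), Gli2 (r 0.44) and Gli3 (r 0.30), and little with Shh (r 0.15). Within the E11.5 sums alone (n = 19) the order was another, with Gli2 at 0.73, Hhip at 0.71, Gli1 at 0.69 and Gli3 at 0.52, against 0.28, 0.59, 0.65 and 0.16 in the E10.5 sums. Gli1 varied more with Gli2 (r 0.82 over the 38 sums) than with Ptch1 or with Hhip (r 0.61). Sums of 1 library share its depth and its tissue, so these are descriptions over 38 points. Without the shallow clusters 1 and 34, the 35 remaining sums gave Ptch1 an r of 0.62 with Gli1 and 0.64 with Hhip. In the 17 E10.5 sums among them, r was 0.44 with Gli1 (rho 0.33) and 0.61 with Hhip. In the 18 E11.5 sums it was 0.77 and 0.71. By the same measure on log2 levels, the genes most like Shh were Sox21 (r 0.93), Kbtbd11 (0.90) and Chl1 (0.90). Each of them was highest in the floor plate-like cells, and cluster 37 had no part in these values. Those most like Gli1 were Scarf2 (r 0.87), Mrc2 and Twist1 (0.84). Those most like Hhip were Angptl1 (r 0.66), Lrig3 and Saa1. Scarf2, Mrc2, Angptl1 and Lrig3 were highest in the shallow cluster 34, and without clusters 1 and 34 the first were Twist2 (r 0.90) for Gli1 and Saa1 (r 0.65) for Hhip. For Ptch1 all 5 nearest genes, Cdk8 (r 0.78) first, were highest in the shallow cluster 34. Without clusters 1 and 34 the nearest were Tle1 (r 0.71), Saa1 (0.69) and the sclerotome gene Pax1 (0.68).

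Within a group, cells with a target were compared for the others after thinning every cell to 5000 UMIs. In sclerotome-like cells at E10.5, Gli1 was detected in 61 of 590 cells with Ptch1 (10.3%, 8.0 to 13.1) and in 48 of 650 without (7.38%, 5.50 to 9.67), intervals that overlap. Hhip was detected in 78 of 590 (13.2%, 10.6 to 16.2) and 54 of 650 (8.31%, 6.3 to 10.7). Hhip was in 20 of 109 cells with Gli1 (18.3%) and in 112 of 1131 without (9.90%), again with overlapping intervals in both comparisons. The contrast was wider in smooth muscle-like cells at E10.5, where Hhip was detected in 20 of 134 cells with Ptch1 (14.9%, 9.36 to 22.1) and 16 of 353 without (4.53%, 2.61 to 7.26). In cluster 3 at E11.5 the shares for Hhip were 5.94% (17 of 286) and 1.80% (14 of 778).

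Hhip was the more frequent in cells with Ptch1 in 12 of 15 E10.5 groups and 12 of 16 E11.5 groups, by a median of 3.33 and 3.92 percentage points. For Gli1 the counts were 9 of 15 and 9 of 16 groups, with medians of 1.76 and 1.53 points. With Smo in place of Ptch1, which is present with or without signal, the counts were 6 of 13 and 5 of 15 for Hhip and 7 of 13 and 5 of 15 for Gli1. Ptch1 itself was the more frequent in cells with Smo in 9 of 13 and 13 of 15 groups, by medians of 4.55 and 4.42 points. The totals for Hhip and Gli1 include groups with 0 detections on both sides, which could not be the more frequent on either. At E11.5 these were hepatoblast-like and nephric epithelium-like cells for both genes, endothelium-like cells for Hhip and cluster 8 for Gli1. At E10.5 they were erythroid-like and neuron-like cells, for Gli1 with Ptch1. In the sclerotome-like cells the Gli1 difference was 2.95 points at 5000 UMIs and 6.83 points among cells thinned to 10000 UMIs.

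**Figure D4:**
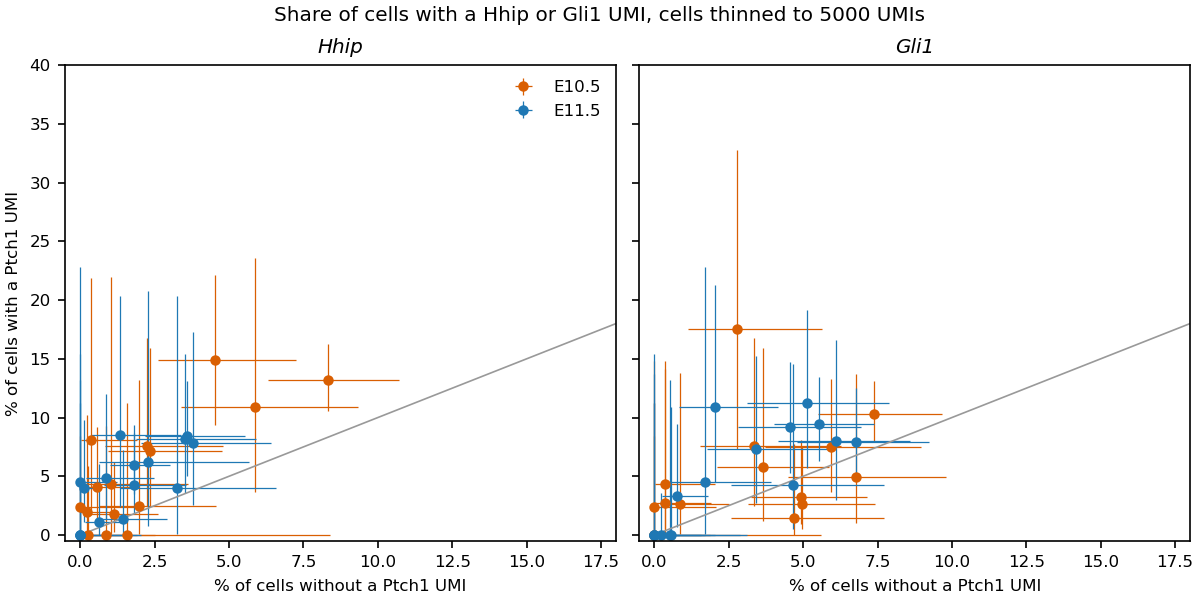
Share of cells with Hhip (left) or Gli1 (right) in percent, among cells with a Ptch1 UMI (vertical axis) and without one (horizontal axis), all thinned to 5000 UMIs. Each point is a cell group of 1 library, with 95% exact binomial intervals, and the line marks equal shares. Hhip lies on the side of more frequent detection with Ptch1 in 12 of 15 E10.5 groups and 12 of 16 E11.5 groups. The endothelium-like, hepatoblast-like and nephric epithelium-like groups at E11.5 had no Hhip UMI on either side.

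Of the other pathway genes, the forkhead targets were higher in the sclerotome-like cells than in the pooled other E10.5 cells: Foxf2 at 62.6 against 6.91 CPM (9.06-fold), Foxf1 at 143 against 27.8 CPM (5.14-fold) and Foxl1 at 15.7 against 3.23 CPM (4.86-fold). Among the 20 deeper groups Foxf2 was highest there, but Foxf1 was higher in cluster 5 (246 CPM) and Foxl1 in smooth muscle-like cells (21.3 CPM). The co-receptors, which help cells bind ligand and are commonly lower where the signal is strong, were lower. Gas1 was at 64.0 against 213 CPM (3.32-fold lower, 3.16 to 3.50), Cdon at 1.78 against 6.62 CPM (3.72-fold lower) and Boc at 4.05 against 8.18 CPM (2.02-fold lower). The medians over the 20 groups were 82.6 CPM for Gas1 and 4.49 CPM for Boc, so the sclerotome-like cells were near the middle of the groups for both. Scube3, a secreted protein that helps release the ligand, was 4.10-fold lower. Per Gas1 UMI there were 2.45 Ptch1 UMIs in sclerotome-like cells and 0.335 in the E10.5 library as a whole.

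Between the libraries as wholes, a gene with at least 20 UMIs was called where its CPM differed by at least 2-fold. Of the 9 genes, 1 was called higher at E11.5 (Ihh) and 1 lower (Shh). Among all 18086 genes tested, 16.1% were called higher and 4.51% lower. The median log2 ratio was 0.16 over all genes, −0.18 over the 9 and −0.12 over the 21 other pathway genes. Shh had the largest difference, −5.67 (−5.97 to −5.39), a 51.1-fold lower level. Ihh was 2.62-fold higher, with a log2 ratio of 1.39 (0.86 to 1.94). The targets were lower without passing the threshold: Hhip by −0.99 (−1.13 to −0.84), Gli1 by −0.74 (−0.87 to −0.62) and Ptch1 by −0.70 (−0.75 to −0.66). Dhh was at 0.37 (0.15 to 0.60), and Smo, Gli2 and Gli3 were between −0.18 and −0.17. Of the 21 other genes, 0 were called higher and 3 lower, all forkhead targets: Foxf2 (−2.56), Foxf1 (−2.05) and Foxl1 (−1.89).

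**Figure D5:**
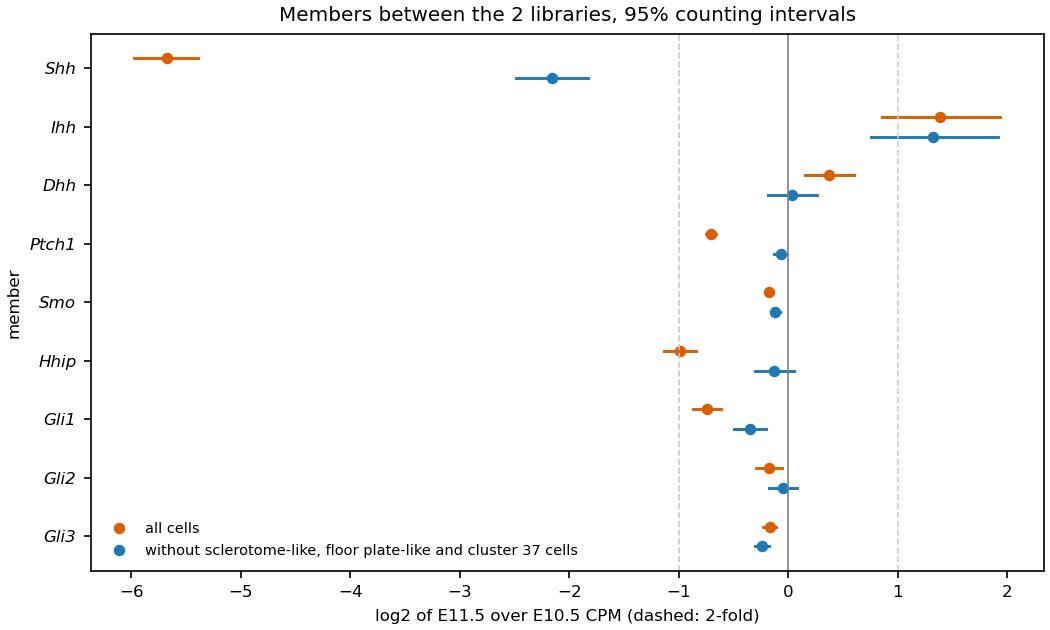
Log2 ratio of E11.5 over E10.5 for the 9 genes, over the whole library and again without the sclerotome-like, floor plate-like and cluster 37 cells, with 95% counting intervals. Ptch1 moves from −0.70 to −0.07 and Hhip from −0.99 to −0.13 when those cells are left out, and Shh from −5.67 to −2.16.

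The differences in Ptch1, Hhip, Gli1 and Shh between the libraries were smaller without the axial cells, which were nearly all in the E10.5 library. The sclerotome-like cells alone held 44.6% of the Ptch1 and 55.2% of the Hhip UMIs at E10.5, so leaving them out had to lower those levels. No comparable share was left out at E11.5, where clusters 3 and 9, among the highest in Ptch1, also had Pax1 UMIs. The part of the axial cells in the difference between the libraries was therefore not tested. Without the sclerotome-like, floor plate-like and cluster 37 cells, a setting chosen after seeing the data, Ptch1 was at −0.07, Hhip at −0.13, Gli1 at −0.35 and Dhh at 0.04. These E10.5 cells had no Dhh UMI, so the E10.5 level of Dhh rose only because their UMIs left the total. Shh was at −2.16 and Ihh at 1.32. The Ihh call did not pass the threshold as a mean over cells (0.85) or after thinning (0.87). Hhip passed it as lower with at most 5% mitochondrial UMIs (−1.16), with likely doublets removed (−1.01) and with the median of all genes set to 0 (−1.14). Gli2, Gli3 and Smo changed sign among the settings, with ranges of −0.33 to 0.15, −0.33 to 0.09 and −0.33 to 0.01.

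Within groups that had at least 50 cells in each library, the members moved in different ways. In smooth muscle-like cells 3 of 6 tested members were called lower at E11.5, against 4.07% of all genes tested there. These were Ptch1 (87.0 to 36.5 CPM, −1.25), Hhip (19.95 to 7.10 CPM, −1.49) and Gli1 (16.4 to 7.79 CPM, −1.08). Cluster 14 held nearly all of these cells at E10.5 and cluster 24 at E11.5. None of the 3 passed the threshold with cells of at least 2000 UMIs (−0.84, −0.92 and −0.78) or at resolution 0.5 (−0.85, −0.94 and −0.78). Gli1 also missed it with doublets removed (−0.99) and after thinning (−0.42). The sclerotome gene Pax1 was at 52.2 and 11.6 CPM in the smooth muscle-like cells of the E10.5 and E11.5 libraries, and its part in the result was not tested.

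In cluster 8, 1 of 8 members was called higher and 3 lower, against 6.4% and 4.13% of all genes tested in it. Dhh was higher by 3.36 (2.22 to 4.74). Gli1 was lower (7.11 to 1.5 CPM, −2.25) and so was Ptch1 (49.6 to 22.8 CPM, −1.12). Shh went from 22 UMIs to 0, a log2 ratio of at most −2.46 with the floor of 3 counts. Pax1 was at 15.1 and 0.665 CPM in the same cells, and its part was not tested. In cluster 5, led by Lhx2, Itm2a and Myl7, 2 of 6 members were called higher (6.54% of all genes tested): Gli2 (4.84 to 10.4 CPM, 1.11) and Hhip (5.02 to 10.1 CPM, 1.02). In cluster 23, led by the chromaffin and neuron genes Chgb and Dbh, 2 of 4 were called higher, Hhip by 1.24 and Gli3 by 1.13. Of all 11381 genes tested in cluster 23, 14.3% were called, 1194 of them higher.

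Endothelium-like cells had 3 of 7 members called lower, against 3.21% of all genes tested: Shh (−4.05), Gli1 (−1.99) and Gli2 (−1.77). With doublets removed or at most 5% mitochondrial UMIs these 3 had too few UMIs to be called. Ptch1 (−0.14) and Smo (−0.10) had intervals that include 0 there, and Pax1 was at 15.8 and 0.149 CPM. Within the arterial cluster 29, Dhh was higher at E11.5 by 0.89 (0.56 to 1.21). Erythroid-like cells had 6 of 8 called lower, against 12.1% of all genes tested: Shh (−4.83), Dhh (−3.58), Gli1 (−1.94), Gli2 (−1.60), Gli3 (−1.36) and Smo (−1.26). Most erythroid-like cells lay in cluster 22 in the E10.5 library but in cluster 4 in the E11.5 library. Within cluster 22 alone, Smo was at 25.9 and 22 CPM and Gli3 at 9.62 and 11.8 CPM, while Shh went from 57 UMIs to 0 and Dhh from 26 UMIs to 2. As means over cells, Gli1 (0.046), Gli2 (−0.42), Gli3 (−0.12) and Smo (−0.84) did not pass the threshold, and neither did Gli2 (−0.98), Gli3 (−0.74) and Smo (−0.64) over a denominator of all genes. With doublets removed, Smo and Dhh passed it and Shh, Gli1, Gli2 and Gli3 had too few UMIs to be called. Pax1 was at 37.3 and 1.29 CPM in the erythroid-like cells, and the part of free RNA from other cells was not tested. Hepatoblast-like cells had 1 of 4 called lower (Gli3, −1.28, against 5.53% of all genes tested), and nephric epithelium-like cells 1 of 5 called higher (Shh, 2.01, interval 1.45 to 2.59, against 10.8% of all genes tested). The nephric class was cluster 16 at E10.5 (428 cells), and 69 cells of cluster 16 with 146 of cluster 31 at E11.5; within cluster 16 Shh was at 2.86 and Gli2 at −1.20, from 42 and 4 UMIs. Gli3 in hepatoblast-like cells was at −0.79 with at least 2000 UMIs. Of the other pathway genes with enough UMIs, 0 were called higher and 5 lower of 20 in endothelium-like cells, 0 and 5 of 15 in erythroid-like cells, and 0 and 2 of 14 in hepatoblast-like cells. In smooth muscle-like cells 2 were called higher and 5 lower of 20, where 8.17% of all genes tested were called higher. In nephric epithelium-like cells 1 and 2 of 19 were called, where 3.56% of all genes tested were called lower.

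The Shh values between libraries rested on few cells. Without the nephric epithelium-like cells that had Foxa2 and Sox2 and no Pax2 or Lhx1, 2 of the E10.5 and 4 of the E11.5 library, Shh was at 4.18 and 6.01 CPM, a log2 ratio of 0.52 (−0.32 to 1.33) that no longer passed the threshold. Without the 3 E10.5 cells with most Shh, the endothelium-like ratio was −2.24 (−4.62 to −0.49), from 21 and 3 UMIs, and the erythroid-like ratio −2.39 (−3.77 to −0.998), from 10 and 11 UMIs. Both stayed past 2-fold. These left-out sets were chosen after seeing the data.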

How the data were processed

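Both libraries were made with the 10x Genomics 3' v3.1 kit, per the labels' protocols, and the deposited matrices hold UMI counts per gene and barcode, which the authors made with Cell Ranger 5.0.0 on mm10 (GRCm38), per the submitters' processing notes. Counts were used as deposited. Barcodes with at least 1000 UMIs, 500 genes and at most 10% mitochondrial UMIs were normalized to 10000 counts per cell, logged and clustered with scanpy 1.11.5 and leidenalg 0.10.2 (2000 variable genes with the pathway genes left out, 40 components, 15 neighbours, resolution 1.0, no integration of the libraries) in Python 3.11.15. A cluster was named "X-like" where at least 3 markers of a list were at 20 CPM or more and at least 3-fold above all other cells and no other list's markers led it; the rest stayed unnamed. Doublets were kept: Scrublet called 0.0% of the cells of each library and so did not work. The alternative removed the 8% of cells with the highest scores.

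UMIs were summed per group and library and divided by the UMIs of those cells, haemoglobin and mitochondrial genes left out (CPM). Intervals are exact Poisson for levels, exact binomial (Clopper-Pearson) for shares and conditional binomial for ratios, all at 95%, and cover counting error only. A count of 0 was given an upper limit from 3 counts. Between libraries a gene with 20 or more UMIs was called at 2-fold, in groups of at least 50 cells in each, and levels are given for groups of at least 20 cells. No test was made, since each stage has 1 library. The interval calculation and the thinning of cells were tested on simulated data.

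The members, the pathway list and the marker lists were chosen with earlier results of these data known. The text names the 9 members, the 21 other pathway genes by role and, for Shh, Ptch1, Gli1 and Hhip, the 5 genes with the highest Pearson's r of log2(CPM + 10) over sums of at least 50 cells, among genes reaching 50 CPM. The alternatives were stricter cell filters, doublets removed, another CPM denominator, a higher UMI floor, means over cells, centring, other clusterings and thinning. Leaving out axial cells, shallow clusters or the cells with most Shh was added after seeing the data. Promoter sequences are from RefSeq. Some genes are not reported here.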

Additional observations from a re-analysis of the deposited data

Results flagged for a closer look

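For 6 of the 9 genes, a group of cells was lower at E11.5 and another higher, with counting intervals of the log2 ratio (E11.5 over E10.5) on opposite sides of 0. The share of all genes that would meet this rule was not computed, so the count is not a result about these genes. The difference between the groups was not tested, and there is 1 library per stage. Shh was at most −2.46 in cluster 8 (22 UMIs against 0, taken at 3 counts) and 2.01 in nephric epithelium-like cells, where the higher value rested on few cells. Dhh was −3.58 in erythroid-like cells and 3.36 in cluster 8. Smo was −1.26 in erythroid-like cells and 0.21 in cluster 8. Hhip was −1.49 in smooth muscle-like cells and 1.24 in cluster 23. Gli2 was −1.77 in endothelium-like cells and 1.11 in cluster 5. Gli3 was −1.36 in erythroid-like cells and 1.13 in cluster 23. The 3 erythroid-like values compare mostly cluster 22 at E10.5 with cluster 4 at E11.5.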

How the results depend on the processing

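Over the whole libraries, the count of members called lower was 2 in place of 1 with at most 5% mitochondrial UMIs, with doublets removed and with the median log2 ratio set to 0. The count called higher was 0 in place of 1 with means over cells and with cells thinned to 5000 UMIs. Within the named classes, 13 pairs of class and member were called lower. This count was 8 with at least 2000 UMIs, 4 with doublets removed, 5 with a UMI floor of 100 and 2 with thinning, and the single pair called higher was 0 with thinning. Thinning and the floor leave fewer UMIs to test, and for the others the cause was not tested. Gli1 in erythroid-like cells turned from −1.94 to 0.046 as a mean over cells; the cause was not tested. Ptch1 in sclerotome-like cells, 156.86 CPM, was 166.69 with at least 2000 UMIs, 168.91 with doublets removed, 151.2 over all genes, 117.72 and 173.91 at resolutions 0.5 and 2.0 and 148.8 with each library clustered alone. Shh in floor plate-like cells, 719.55 CPM, was 851.96 with doublets removed, 688.21 over all genes, 542.62 and 1253 at resolutions 0.5 and 2.0 and 1309.7 with each library alone. With at most 5% mitochondrial UMIs no class of that name was found and no value is given. The difference in Gli1 between sclerotome-like cells with and without Ptch1, 2.95 percentage points, was 6.83 when thinned to 10000 UMIs. No paired analysis was possible because each stage has 1 library, and for the same reason no replicate could be left out. Low UMI counts limit the values of Ihh, Dhh, Hhip and Gli1 in most groups, and of Shh at E11.5.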

Other observations

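The ligand-processing genes differed between groups as well. Scube2, which helps release lipid-bearing ligand from the cell, was at 4.77 CPM (1.3 to 12.2) in cluster 37 at E10.5, from 4 UMIs. Disp1, the transporter that exports it, was highest there (21.5 CPM, 12.7 to 34, from 18 UMIs), followed by muscle-like cells (9.14 CPM, 7.05 to 11.6), and Cdon reached 27.5 CPM in cluster 37. Scube3 was highest in the nephric epithelium-like cells of both libraries, with 52.9 CPM at E10.5 against 75.8 CPM at E11.5, and stood at 52.5 CPM in cluster 37. Spop, part of the complex that marks Gli proteins for turnover, was highest in the floor plate-like cells (175.41 CPM). These values were looked up after the members' results and carry no test.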
